A study of Mus musculus and synthetic construct with 30 samples.

Results

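Ribosomal protein genes and their paralogs were examined in WT and Peril KO libraries of 3 sources: mouse embryonic stem cells (mESC), embryonic kidney and a dissection of ganglionic eminence and olfactory bulb (GEOB). Genes were taken by name, as Rpl or Rps followed by a number, and names marked as pseudogenes with -ps were left out. Of the 26759 genes in each table, 94 names matched. Among these, 83 are named as ribosomal proteins or their paralogs, 49 of the large subunit and 34 of the small subunit. They are called members here. The entry named Rpl24 is counted among them by name, although its gene identifier belongs to Zbtb11 in a later GENCODE release. All counts of members as listed include it. The other 11 matches are not parts of the ribosome: 10 are Rps6k kinases, named for ribosomal protein S6 as a substrate, and 1 is Rps19bp1. Those 11 genes lay between 0.26 and 120.21 TPM over the 16 libraries, where TPM is transcript abundance per length scaled to the same total in every library, and stayed out of every sum and count of members. None of them was called between KO and WT in any of the 3 sources.

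KO samples carried the Periltm1.1Vlcg allele, in which a LacZ reporter stands in place of most of Peril, a long noncoding RNA gene. WT and KO samples shared a mixed C57BL/6J and 129S6 background. The mESC were 3 WT and 3 KO wells, all male, grown without differentiation on feeder fibroblasts, and each genotype is 1 clone, so clone and genotype cannot be told apart. Kidneys came from embryos of litter 43 at stage E14.5, with WT embryos 1 (male), 3 (female) and 8 (male) and KO embryos 7 (male), 9 (female) and 10 (female). GEOB tissue came from litter 46 at the same day, with WT embryos 1 and 3, both male, and KO embryos 2 and 7, both female. The effects of sex and of genotype can therefore not be separated in GEOB. Source is likewise confounded with culture, litter and collection. Wells of 1 clone are not separate animals. The test took 1 spread per gene over the wells and embryos of all sources. A p-value in mESC therefore rests on that pooled spread and measures no spread between clones.

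A ribosome is built from ribosomal RNA and a large set of proteins, each needed in near-equal amount. The proteins are made in the cytoplasm, enter the nucleolus and are assembled there with the RNA into a large and a small subunit. Most of these mRNAs are short, abundant and begin with a tract of pyrimidines, which lets the cell turn their translation up or down together. Rapidly growing cells such as embryonic stem cells devote much of their RNA output to this class, and several members have a paralog that is known mainly from testis or muscle.

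Libraries held 17544707 to 45924887 expected counts. LacZ checked the labels: it had 1, 4 and 2 counts in WT and 4357, 2492 and 3761 in KO mESC, and 3 and 0 in WT and 2087 and 1346 in KO GEOB. In kidney LacZ was at 25, 28 and 4 counts in WT and 4, 9 and 15 in KO libraries, so it does not check the kidney labels. Peril itself had 8.13, 17.52 and 11.49 counts in WT and 8.29, 3 and 7.22 in KO mESC and was at 0 in all kidney and GEOB libraries. Markers matched the sources: 6 stem cell genes summed to 8173 to 8726 TPM in mESC and to less than 4 TPM elsewhere, 7 kidney genes to 360.7 to 420.4 TPM in kidney, and 9 ganglionic eminence genes to 1092 to 1190 TPM in GEOB. The 6 genes of olfactory bulb and forebrain neurons summed to 2538 to 2920 TPM in GEOB. They also summed to 101.7 to 114.2 TPM in mESC, mostly from Tubb3. Tbx21 of that list was at 0.25 TPM in WT GEOB. The list holds general forebrain neuron genes, so it does not check the olfactory bulb part by itself. Fibroblast markers summed to 1.21 to 4.02 TPM in mESC. Globin and other erythroid genes summed to 7080 to 15320 TPM in kidney and 3214 to 3842 TPM in GEOB, against less than 2 TPM in mESC. In bulk RNA, fewer cells of a type and less RNA per cell cannot be told apart.

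The members took up a far larger part of all TPM in mESC and kidney than in GEOB. In WT mESC their share was 19.29%, 19.35% and 19.35% (mean 19.33% ± 0.0349, SD, n = 3). In WT kidney it was 20.84%, 20.49% and 21.34% for embryos 1, 3 and 8 (20.9% ± 0.428, SD, n = 3). In WT GEOB it was 9.69% and 9.55% (9.62% ± 0.0974, SD, n = 2). No library of GEOB came near a library of the other sources. The mean share in WT mESC was 2.01 times and that in WT kidney 2.17 times the share in WT GEOB, while mESC stood at 0.925 of kidney.

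The large and the small subunit contributed nearly the same share in WT mESC, 9.67% and 9.66%. In kidney the large subunit held 11.0031% and the small 9.88%, and in GEOB 5.01% and 4.61%. Because the mRNAs are short, the same genes hold a smaller part of the sequenced fragments than of the TPM: 6.65% of expected counts in WT mESC, 7.88% in WT kidney and 2.56% in WT GEOB. On that scale kidney was 3.08 times GEOB. Proteins of the mitochondrial ribosome, which are encoded by other genes, showed smaller ratios of their summed TPM, 1.30 for mESC and 1.14 for kidney against GEOB.

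**Figure D1:**
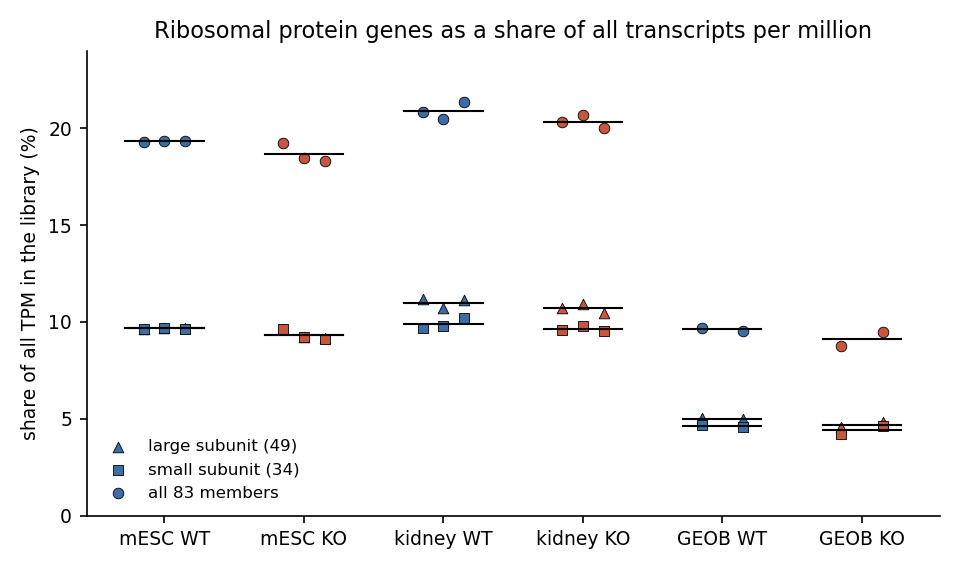
Share of all TPM (y axis, %) held by the 83 members (circles), the large subunit (triangles) and the small subunit (squares) in each library, by source and genotype (x axis, WT blue, KO red), with lines at group means. The GEOB libraries sit between 8.76% and 9.69% and those of mESC and kidney between 18.33% and 21.34%; triangles and squares coincide in mESC.

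In KO libraries the shares were slightly lower on average. KO mESC wells held 19.26%, 18.46% and 18.33% (18.7% ± 0.505, SD, n = 3), all below the lowest WT well on this scale, with well 1 close to it. On expected counts, and in TPM without mitochondrially encoded genes, KO well 1 lay above WT well 1, with 6.6685% against 6.6151% and 20.8545% against 20.8283%. KO kidneys held 20.32%, 20.69% and 20.0012% (20.3% ± 0.343, SD, n = 3), and their range overlapped that of WT. It did not overlap on expected counts, where KO kidneys held 7.2268% to 7.4687% and WT kidneys 7.8059% to 8.0029%, nor without mitochondrially encoded genes, with 23.718% to 24.3725% and 24.7073% to 25.9535%. KO GEOB held 8.76% and 9.47% (9.11% ± 0.499, SD, n = 2), both below the WT pair. The mean share of TPM in KO libraries differed from WT by -3.36% in mESC, -2.65% in kidney and -5.27% in GEOB, relative to the WT share. On expected counts the differences were -3.64%, -6.45% and -8.23%, so both the size and the order of the sources depended on the scale. These are sums over each library and carry no test.

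The median member stood at 2415 TPM in WT mESC, 2263 TPM in WT kidney and 1228 TPM in WT GEOB. Rpl13a, a large-subunit protein also known from a complex that silences inflammatory mRNAs, was the highest member in every group, at 5664 ± 60.8 TPM in WT mESC, 7099 ± 721 TPM in WT kidney (SD, n = 3 each) and 2929 ± 59.3 TPM in WT GEOB (SD, n = 2). Other members with high means over the 16 libraries were Rps24 (4185 TPM), Rpl23a (4171 TPM) and Rpl41 (4040 TPM), which codes for one of the shortest known proteins. Their order changed with the source: Rps24 was the highest of these 3 in WT mESC (4733 TPM) and Rpl41 in WT kidney (5924 TPM). At least 1000 TPM was reached by 65 of 83 members in WT mESC, 67 in WT kidney and 53 in WT GEOB.

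At the other end, 4 members were below 1 TPM in WT mESC and 6 in WT kidney and WT GEOB. Rps27 was listed at 0 in all 16 libraries. Rps3a2 and Rps3a3 (means 0.183 and 0.0588 TPM) are processed pseudogenes in a later annotation and share 92.9% and 75.3% of their 31-base words with other genes. Rps3a2 never exceeded 12.7 counts. Rps27 and Rps3a3 did not pass the filter on low counts, so 81 of 83 members were tested, all 49 of the large and 32 of the small subunit.

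The reference sequence around the start of transcription shows a tract of pyrimidines found in some members and paralogs and not in others. In each line, 10 bases before and 20 bases from the RefSeq start are given on the coding strand (GRCm38.p6), and capitals mark a tract of C and T that begins with C, runs for at least 8 bases and has its first base within 20 bases of the start.
Rpl13a, chr7:45128726-45128755 (-): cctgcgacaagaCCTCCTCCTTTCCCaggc
Rpl35, chr2:39005112-39005141 (-): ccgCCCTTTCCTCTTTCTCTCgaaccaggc
Rps12, chr10:23787190-23787219 (-): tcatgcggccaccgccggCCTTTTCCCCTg
Rpl22l1, chr3:28805498-28805527 (+): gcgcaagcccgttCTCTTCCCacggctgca
Rpl10l, chr12:66284382-66284411 (-): cctccattttgcggctggcggtgggcacgc
Rpl39l, chr16:10170218-10170247 (+): aggcctttccggatttccggtggtcgccat
Rpl7l1, chr17:46782637-46782666 (-): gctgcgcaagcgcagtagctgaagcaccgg

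The first 3 lines are members that are not paralogs, and all 3 have a tract. The last 4 are paralogs, of which Rpl22l1 alone has a tract in this window. These lines are examples and leave out other paralogs. Tracts of paralogs were not counted apart from those of other members. Of 82 member names looked up, 60 had a start sequence, and 31 of them (51.7%) held such a tract, against 4490 of 27025 (16.6%) of all genes and 14 of 69 (20.3%) mitochondrial ribosomal protein genes. The tract was found in 20 of 37 large-subunit and 11 of 23 small-subunit genes. A C exactly at the annotated start followed by 4 pyrimidines was present in 12 of 60 members and in 813 of the 27025 genes. The search covered the coding strand only, a start can lie some bases off the annotated one, and the count is a description of the reference.

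Members were higher in WT mESC than in WT GEOB almost without exception. Of 81 tested members, 79 were called higher and 0 lower (edgeR quasi-likelihood test, adjusted p under 0.05 over 17459 genes), against 41.3% called higher among all genes; either direction was called for 84.8%. Lower calls made up 43.5% of all genes. The median member stood 3.09-fold higher, a log2 difference of 1.63, against a median of -0.06 over all tested genes. Kidney against GEOB gave 76 higher and 1 lower of 81, against 40.6% and 37.9% of all genes (78.4% in either direction), with a median fold of 3.18. The size of these medians depends on the scale: in plain TPM the median of all genes was -0.74 for mESC against GEOB and -0.61 for kidney against GEOB, and that of the members 0.95 and 1.07. Relative to the median gene the members stood 1.70 and 1.68 higher in TPM and 1.69 and 1.63 higher in the fit.

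Between WT mESC and WT kidney members moved in both directions: 36 were called higher in mESC, 28 lower and 17 were not called, against 40.2% higher and 44.1% lower of all genes (84.3% in either direction). The large subunit had 22 higher and 20 lower of 49, the small subunit 14 higher and 8 lower of 32. The median member differed by 0.02 on the log2 scale. In KO libraries the same comparison gave 36 higher and 27 lower, against 39.9% and 43.9% of all genes (83.9% in either direction). For KO mESC against KO GEOB it gave 80 higher and 0 lower, against 40.3% and 44% (84.4%). For KO kidney against KO GEOB it gave 76 and 0, against 40.1% and 38.8% (78.9%).

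Of the members called between mESC and kidney with at least 10 TPM, several large-subunit proteins were higher in kidney. Rpl22l1, the paralog of Rpl22, read 563, 521 and 524 TPM in WT mESC and 1633, 1340 and 1588 TPM in WT kidney. Its log2 difference was -1.45 (SE 0.0965, adjusted p = 3.091e-10). The values of the 2 sources did not overlap in any WT or KO library. Rpl31, at the exit of the peptide tunnel, averaged 1256 ± 4.93 TPM in WT mESC and 2471 ± 188 TPM in WT kidney (SD, n = 3 each; log2 difference -0.92, SE 0.0637). Rpl26, a large-subunit protein also known to bind p53 mRNA, averaged 3290 ± 49.6 and 6345 ± 417 TPM (log2 difference -0.90, SE 0.0622). Rpl35 (-0.80, SE 0.0814) and Rpl39 (-0.80, SE 0.0861), a tiny protein lining the exit tunnel, followed. Both have near-identical copies. The entry Rpl39 holds 56.94% of the sum with its copy in WT mESC and 60.08% in WT kidney. The share at the entry Rpl35 is given further on.

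In the other direction, Rps2, a small-subunit protein near the mRNA entry, averaged 4587 ± 141 TPM in WT mESC and 2472 ± 127 TPM in WT kidney (SD, n = 3 each). Its log2 difference was 0.94 (SE 0.0592, adjusted p = 1.534e-10). Rpl8, close to the peptidyl transferase centre, averaged 3461 ± 34.7 and 1904 ± 93.8 TPM (0.91, SE 0.0604). Rps24 did not differ detectably, with 4733 ± 38.4 and 5080 ± 53.0 TPM (0.02, SE 0.0569, adjusted p = 0.777). Rps6, the small-subunit protein phosphorylated by S6 kinases, was 0.39 higher in mESC (SE 0.0561).

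Against GEOB the members differed among themselves mainly by degree. Among the 70 members with a mean of at least 500 TPM over the WT groups, the mESC difference ran from 1.07 (Rpl31) to 2.55 (Rps27l) with an SD of 0.309 over members. The kidney difference ran from 0.62 (Rpl10) to 2.73 (Rpl22l1) with an SD of 0.365. In the fit of entries as listed, all 70 were higher in mESC and in kidney than in GEOB. In plain TPM the entry Rpl10 was not higher in kidney, with means of 536.9 TPM in WT kidney and 547.8 TPM in WT GEOB. That entry holds 15.71% of the sum with its near-identical copy in WT kidney and 24.65% in WT GEOB. With the copy added, Rpl10 was 1.27 higher in WT kidney than in WT GEOB. Between mESC and kidney the same 70 ran from -1.45 to 0.94 (SD 0.471), 32 above and 38 below 0.

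**Figure D2:**
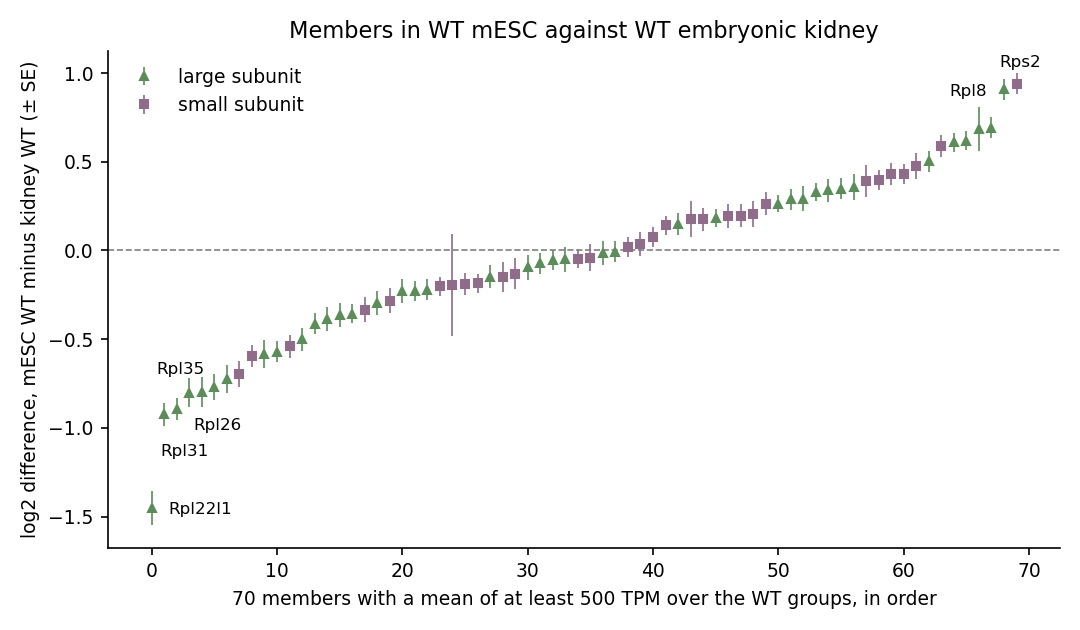
Log2 difference between WT mESC and WT kidney (y axis, point with SE) for the 70 members with a mean of at least 500 TPM over the WT groups, in order (x axis), with large-subunit genes as triangles and small-subunit genes as squares. The points run from -1.45 (Rpl22l1), which stands apart, to 0.94 (Rps2), 38 below and 32 above 0; the wide bar is Rps7 (SE 0.287).

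The order of levels within a source was broadly kept. Over the 70 members Spearman's rho of mean TPM was 0.76 between WT mESC and WT kidney, 0.87 between mESC and GEOB and 0.85 between kidney and GEOB. Mean transcript length had a rho of 0.22, 0.11 and -0.25 with the log2 differences of mESC against kidney, mESC against GEOB and kidney against GEOB. These are descriptions over genes that share their libraries.

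Among entries as listed, and besides the paralogs, Rps12 and Rps2 stood farthest above GEOB in mESC. Rps12, a small-subunit protein at the beak of the subunit, read 5366, 5312 and 5488 TPM in WT mESC against 1365 and 1621 TPM in WT GEOB (2.53, SE 0.111, adjusted p = 8.871e-13). With its copy Rps12-ps3 added, Rps12 was 2.28 higher. Rps2 was 2.45 higher (SE 0.0726). In kidney, Rpl36a, a small zinc-binding protein of the large subunit, averaged 3889 ± 357 TPM (SD, n = 3) against 1002 ± 16.6 TPM in WT GEOB (SD, n = 2), a difference of 2.55 (SE 0.0910). Rpl26 was 2.30 higher in kidney than in GEOB (SE 0.0758).

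A single member was called lower in kidney than in GEOB, the entry named Rpl24 (-0.28, SE 0.0869, adjusted p = 0.00761; -0.25 and not called without WT GEOB 3), and in mESC it was 1.38 higher than in kidney (SE 0.0756). This entry stood at only 7.23 to 20.09 TPM, and its gene identifier belongs to the zinc-finger gene Zbtb11 in a later GENCODE release. A separate entry written RPL24 in capitals, which the naming rule does not take, stood at 1081 to 2032 TPM. The values of the entry Rpl24 are therefore not values of the ribosomal protein by the later annotation.

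Some paralogs differed more between mESC and the other sources than any of these 70 members. Stretches of coding sequence of 3 paralogs called higher in mESC than in kidney and GEOB, and of their parent genes, show how far each pair can be told apart by short reads. Each line gives the 30 bases where the pair differs most within 1 exon (GRCm38, coding strand), and capitals mark the bases that differ.
Rps4x, chrX:102186413-102186442 (-): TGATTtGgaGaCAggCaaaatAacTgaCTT
Rps4y2, chr6:148355195-148355224 (+): CTCGCtAgaCaGCggAaaaatCacCgaTGC
Rpl10, chrX:74271835-74271864 (+): aaAgcAaaAgtTgatgaAttCccactTtgT
Rpl10l, chr12:66284211-66284240 (-): aaGgcGaaGgtGgatgaGttTccactCtgC
Rpl39, chrX:37082712-37082741 (-): cTaagAgAagacaCtggagGAgaacGaaGC
Rpl39l, chr16:10174425-10174454 (+): cCaagCgGagacaTtggagACgaacCaaAT

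In all 3 pairs the parent gene lies on the X chromosome and the paralog on an autosome. This does not hold for every paralog that was higher in WT mESC than in WT kidney. The parents of Rpl7l1 and Rpl3l, described below, lie on chromosomes 1 and 15. Over their aligned coding bases, Rps4y2 and Rps4x were identical at 79.8% (159 mismatches in 788 bases), Rpl10l and Rpl10 at 84.7% and Rpl39l and Rpl39 at 85.0%. The gene listed as Rps4y2 lies on chromosome 6, and the later annotation names it Rps4l and lists it as a transcribed processed pseudogene.

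Rps4y2 was abundant in mESC. It read 602, 624 and 630 TPM in WT wells and 686, 690 and 676 TPM in KO wells. Kidney libraries lay between 66.6 and 84.2 TPM and GEOB libraries between 36.3 and 57.3 TPM. The 3 sources did not overlap, and WT mESC exceeded WT kidney by 3.03 on the log2 scale (SE 0.0895, 8.18-fold, adjusted p = 6.989e-15) and WT GEOB by 4.51 (SE 0.119, 22.9-fold, adjusted p = 1.377e-15). Rps4x, the parent gene and a small-subunit protein encoded on the X chromosome, was by contrast 0.19 lower in mESC than in kidney (-0.19, SE 0.0558). The level of Rps4y2 was 17.8% ± 0.656 of that of Rps4x in WT mESC and 21.0% ± 0.373 in KO mESC (SD, n = 3 each), 1.91% ± 0.166 in WT kidney and 2.41% ± 0.588 in WT GEOB. Between KO and WT, Rps4y2 differed by 0.08 in mESC (SE 0.0808, adjusted p = 0.651), -0.23 in kidney (SE 0.0878, adjusted p = 0.537) and 0.20 in GEOB (SE 0.127, adjusted p = 1).

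Rpl10l, a copy of Rpl10 without introns known for its role in male meiosis, was detected almost only in mESC. It read 22.88, 22.08 and 22.51 TPM in WT and 22.67, 22.34 and 22.15 TPM in KO mESC, with 1272 counts in all over the WT wells. It was listed at 0 in all GEOB and kidney libraries except KO kidney 7, where it had 1 count. Taking 3 counts over a group as the floor, WT mESC was at least 333-fold higher than WT kidney and at least 154-fold higher than WT GEOB. Even in mESC it stood at 2.67% ± 0.118 of the entry Rpl10 and at 0.644% ± 0.00945 of Rpl10 summed with its near-identical copy Rpl10-ps3 (SD, n = 3).

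Rpl39l, known from testis and stem cells, followed the same order at a lower level. It read 10.04, 10.83 and 11.74 TPM in WT mESC and 8.65, 7.48 and 7.02 TPM in KO mESC, and at most 0.39 TPM elsewhere. WT mESC exceeded WT kidney, where all 5 counts lay in embryo 3, by 6.11 (SE 0.462), and was at least 48.3-fold higher than WT GEOB, where it had 0 counts. All KO wells lay below all WT wells, but the log2 difference of -0.58 was not called (SE 0.275, edgeR adjusted p = 0.242). Rpl3l, a paralog of Rpl3 known from heart and skeletal muscle, was near the detection limit: 19, 24 and 31 counts in WT and 22, 9 and 10 in KO mESC, and at most 2 counts in any other library. It was called higher in WT mESC than in WT kidney (5.67, SE 0.756). Of 15 skeletal muscle markers, Mylpf, a myosin light chain, read 153.2 to 237.6 TPM in mESC. The other 14 summed to 7.12 to 9.02 TPM there, below the 23.52 to 58.89 TPM in kidney. In GEOB they summed to 8.8 to 12.25 TPM, which overlaps the range of mESC. Myod1, Myl1 and Tnni2 were at 0 in the mESC means. Ttn and Neb went the other way, with 1.223 and 2.173 TPM in WT mESC against 0.06 and 0.6267 TPM in WT kidney. The part of these markers in the level of Rpl3l was not tested.

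Other paralogs were expressed everywhere, in different proportion to their parents. Rpl22l1 stood at 23.3% ± 0.649 of Rpl22 in WT mESC, 56.1% ± 2.33 in WT kidney and 41.3% ± 2.36 in WT GEOB (SD, n = 3, 3 and 2), with no overlap between sources in any library. Rpl36al, a copy of Rpl36a on chromosome 12, stood at 42.3% ± 1.11 of Rpl36a in WT mESC, 20.8% ± 2.55 in WT kidney and 39.8% ± 2.01 in WT GEOB, so mESC and GEOB lay closer to each other than to kidney. The lower ratio in kidney went with a higher Rpl36a there, since Rpl36al itself differed by only 0.26 between mESC and kidney (SE 0.0495).

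Rpl7l1, a protein of ribosome assembly related to Rpl7, read 168, 162 and 163 TPM in WT mESC, 95.0, 96.6 and 83.5 TPM in WT kidney and 71.5 and 70.6 TPM in WT GEOB. It was 0.89 higher in mESC than in kidney (SE 0.0533, adjusted p = 8.255e-11) while Rpl7 was lower in mESC (-0.41, SE 0.0587), and its ratio to Rpl7 was 5.31%, 2.24% and 4.12% in the 3 sources. Rps27l, a p53-responsive paralog of Rps27, averaged 808 ± 16.5, 741 ± 118 and 220 ± 9.78 TPM. Its difference between mESC and kidney was not called (0.18, SE 0.101, adjusted p = 0.115; 0.25 and called without WT kidney 1), while it stood 2.55 above GEOB in mESC (SE 0.132) and 2.37 in kidney (SE 0.131). With all libraries no paralog was called between KO and WT in any source; without KO well 1 of mESC, Rpl36al was called lower (-0.175, adjusted p = 0.0464).

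**Figure D3:**
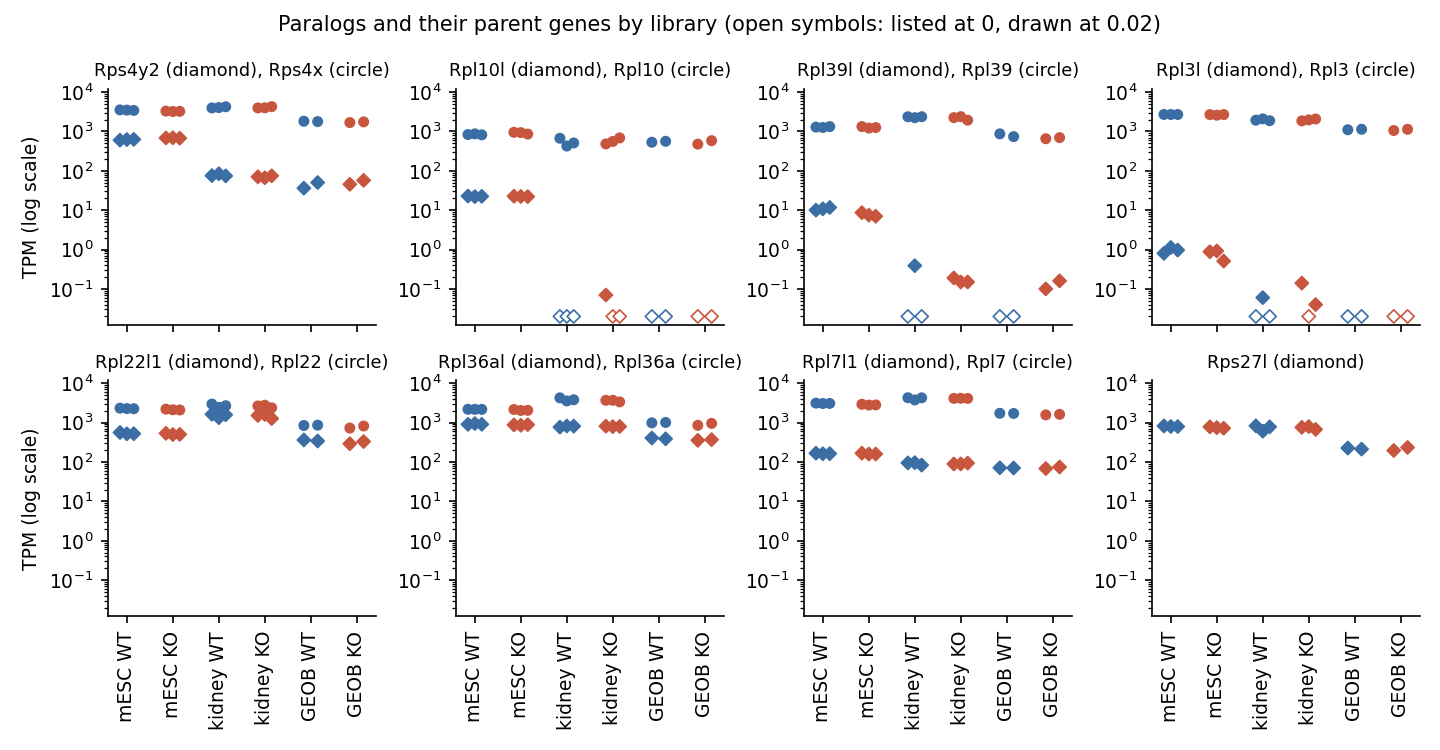
TPM by library on a log scale (y axes) for 8 paralogs (diamonds) and, for 7 of them, the parent gene (circles), by source and genotype (x axes; WT blue, KO red; open symbols are libraries listed at 0). Rps4y2, Rpl10l, Rpl39l and Rpl3l are highest in all 6 mESC libraries, whereas Rpl22l1 is highest in kidney at 1274 to 1633 TPM; Rps27 is not drawn because it is listed at 0.

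Several members are low in these tables while a near-identical copy elsewhere in the genome is high. A copy was defined as an entry with at least 70% of its 31-base words in 1 ribosomal protein gene, and 36 entries met this definition. These reference stretches of 30 bases (GRCm38, coding strand, capitals for the bases that differ) show how alike a member and its copy can be.
Rpl5, chr5:107901870-107901899 (+): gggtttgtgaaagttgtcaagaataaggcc
Gm15500, chr7:114706131-114706160 (-): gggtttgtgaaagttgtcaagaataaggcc
Rps7, chr12:28635607-28635636 (-): aagatcgTgaagcccaatggcgagaagccG
Gm6472, chrX:152910073-152910102 (-): aagatcgGgaagcccaatggcgagaagccA

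Gm15500 has no mismatch to the 891 coding bases of Rpl5, and Gm6472 has 3 mismatches in 582 aligned bases of Rps7. The entry Rpl5, a protein that carries the 5S RNA and binds the p53 regulator Mdm2, held 93.4 TPM in WT mESC, 3.20% of the 2919 TPM summed over it and its copy. The shares at the named entry in WT mESC were 3.91% for Rpl12, 8.26% for Rpl27, 2.98% for Rpl27a, 24.1% for Rpl10, 27.8% for Rpl35 and 44.2% for Rpl11. For Rps27 it was 0%, with 5151 ± 47.8 TPM in WT mESC, 5986 ± 391 TPM in WT kidney (SD, n = 3 each) and 2706 ± 32.4 TPM in WT GEOB (SD, n = 2) at the copy Gm9846. The copy is identical to Rps27 over its 252 coding bases.

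With the counts of copies added to their parent genes, a choice made after the data were seen, 82 members were tested. Then 34 were called higher and 29 lower in WT mESC than in WT kidney, against 40.2% and 44.1% of all genes in that fit. Against GEOB, mESC had 81 and 0, against 41.3% and 43.6%, and kidney 77 and 1, against 40.6% and 37.9%. Rpl5 is an instance of what changed: as listed it differed little between mESC and GEOB (0.08, SE 0.0609, adjusted p = 0.251), and with its copy it was 1.57 higher in mESC. Rpl12 with its copies stood 2.42 above GEOB in mESC and 2.34 in kidney.

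**Figure D4:**
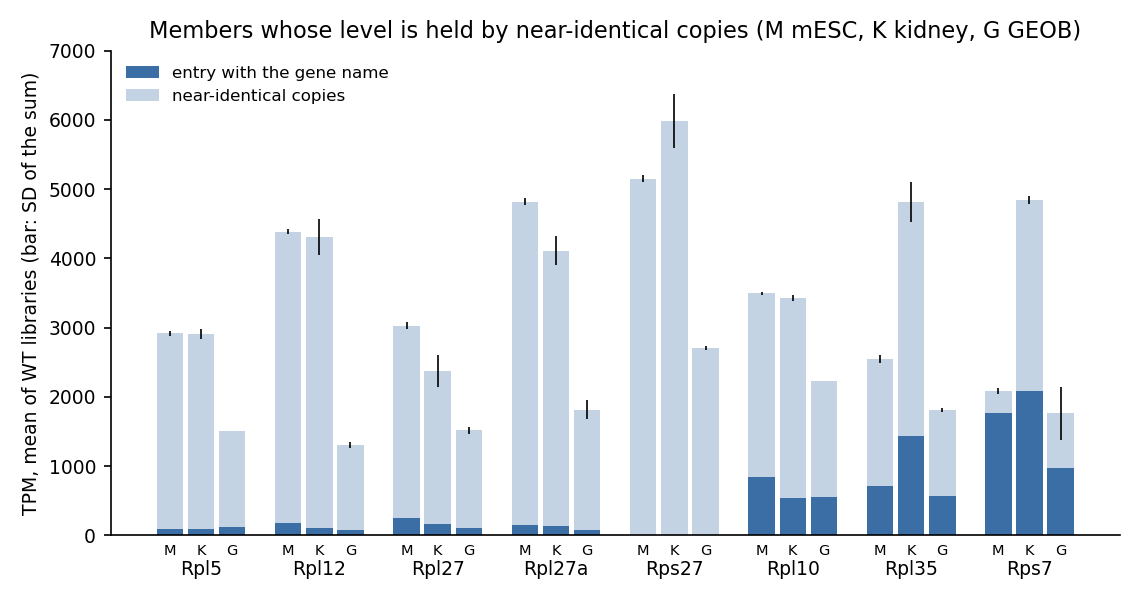
Mean TPM of the WT libraries (y axis, bars from 0, error bar the SD of the sum) for 8 members in mESC (M), kidney (K) and GEOB (G), split into the entry with the gene name (dark) and its near-identical copies (light). Almost all of the sum lies at the copies for Rpl5, Rpl12, Rpl27, Rpl27a and Rps27, and the Rps7 sum of kidney (4847 TPM) is above those of mESC (2078 TPM) and GEOB (1760 TPM).

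Rps7 and its copy divided their reads differently from library to library. In GEOB the entry Rps7 read 1360 TPM in WT 1 and 1243 TPM in KO 7 but 579 TPM in WT 3 and 524 TPM in KO 2. Gm6472 read 124 and 116 TPM in the first pair and 1455 and 1323 TPM in the second. The sums ran from 1359 to 2035 TPM, so the entries varied more than their sum, and they varied across genotypes. In WT kidney Gm6472 held 2549, 3333 and 2410 TPM, and in mESC 229.64 to 379.16 TPM. With copies added, Rps7 was called lower in mESC than in kidney (-0.89, adjusted p = 2.112e-09), whereas the entry alone was not (-0.20, SE 0.287, adjusted p = 0.531). Whether Gm6472 is transcribed or takes reads of Rps7 cannot be told from these tables.

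Between KO and WT, 1 of 81 members was called in mESC and 0 in kidney and GEOB. In mESC the count of 1 (1.23%, higher, with 0 lower) stood beside 6.86% called among all 17459 genes, 2.27% higher and 4.59% lower. In kidney 0.223% and in GEOB 0.063% of all genes were called. Unadjusted p under 0.05 was reached by 22 members in mESC, 20 of them lower, against 21.2% of all genes (13.9% lower). In kidney it was reached by 22 members, all lower, against 7.6% (3.79% lower), and in GEOB by 17, all lower, against 3.01% (1.34% lower). DESeq2 called 6 members in mESC, 0 in kidney and 1 in GEOB, against 11.2%, 0.436% and 0.109% of the genes to which it gave an adjusted p.

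The called member was Rpl5. Its entry read 96.8, 90.69 and 92.78 TPM in WT wells and 101.64, 115.73 and 121.73 TPM in KO wells, a log2 difference of 0.20 (SE 0.0537, adjusted p = 0.0354). Its copy Gm15500 went the other way, with 2867, 2810 and 2800 TPM in WT and 2773, 2601 and 2650 TPM in KO wells. With the copy added the difference was -0.13 and not called (adjusted p = 0.175), and the call was lost when any single well was left out. The entry called holds 3.20% of the TPM summed over it and its copy in WT mESC.

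Most members read slightly lower in KO than in WT libraries without reaching the threshold. The median log2 difference was -0.11 in mESC (median of all genes -0.03), -0.11 in kidney (0.00) and -0.11 in GEOB (0.02). Values were below 0 for 75 of 81 members in mESC, 75 in kidney and 69 in GEOB. In normalised CPM, the highest KO library lay below the lowest WT library for 26 members in mESC (21.4% of all genes), 24 in kidney (5.32%) and 55 in GEOB (11.8%), and the reverse held for 1 in each (12.3%, 4.86% and 15.6%). On the plain TPM scale the medians were -0.05, -0.02 and -0.07, against 0.03, 0.08 and 0.05 for all genes, and the members without overlap below WT were 26, 5 and 43, beside 13%, 2.2% and 8.8% of all genes. Members of 1 contrast share their libraries, so these counts are not independent observations.

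**Figure D5:**
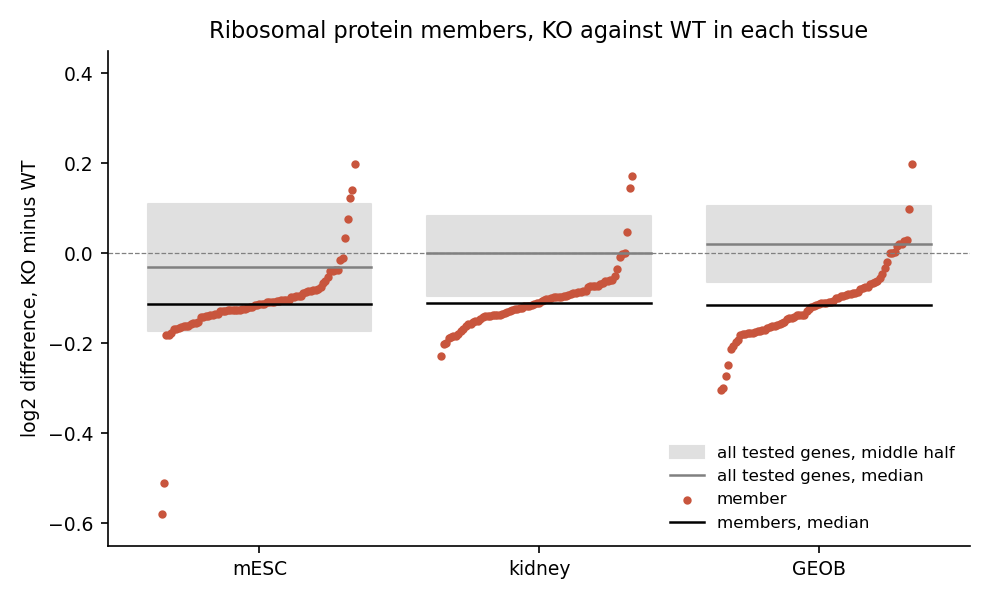
Log2 difference of KO against WT (y axis) for the tested members in each source (points in order of size; black line, member median; grey line and band, median and central 50% of all tested genes). Member medians lie at -0.11 in all 3 sources; 1 member in mESC, 2 in kidney and 2 in GEOB, all of low count, lie outside the axis.

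In mESC the size of the difference depended on KO well 1. Leaving out KO well 1, whose member share of 19.26% was close to that of WT wells, gave a median of -0.17 and 21 members called lower, against 5.91% of all genes in that fit, among them Rpl21 (-0.22, adjusted p = 0.0103) and Rpl23a (-0.24, adjusted p = 0.0107). Leaving out KO well 2 or 3 gave medians of -0.08 and -0.09 and 0 calls. With all wells Rpl21 read 1544, 1516 and 1546 TPM in WT and 1509, 1366 and 1373 TPM in KO (-0.16, SE 0.0534, adjusted p = 0.0823). The whole fibroblast list of 7 genes summed to 3.07 to 4.02 TPM in WT and 1.21 to 2.14 TPM in KO wells. Of these 7, 2 were called lower. Mylpf, the only 1 of 14 tested skeletal muscle markers called, read 153.2 to 179.0 and 217.9 to 237.6 TPM. The other 14 of that list of 15 summed to 7.29 to 9.02 and 7.12 to 8.41 TPM. With all wells, 4.59% of all genes were called lower and 2.27% higher. The part of these markers in the member values was not tested.

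In kidney Rpl26 and Rpl23a had the smallest p-values. Rpl26 read 6638, 5868 and 6528 TPM in WT and 6013, 5945 and 5636 TPM in KO kidneys, which overlap, and its difference was -0.20 (SE 0.0617, adjusted p = 0.385). Rpl23a, which lies at the tunnel exit, read 5499, 5260 and 5521 TPM in WT and 5048, 5227 and 5110 TPM in KO kidneys, without overlap (-0.17, SE 0.0560, adjusted p = 0.4503). Erythroid markers summed to 9330 to 15320 TPM in WT and 7080 to 10420 TPM in KO kidneys, with 0 of 9 called. Muscle markers summed to 56.2 to 76.6 and 27.4 to 37.3 TPM, with 7 of 14 tested called lower. Of all genes 0.223% were called in kidney in either direction. The part of these markers in the member values was not tested.

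In GEOB, Rpl11, which with Rpl5 carries the 5S RNA, read 857 and 784 TPM in WT and 676 and 733 TPM in KO embryos. The difference was -0.30 (SE 0.0727, edgeR adjusted p = 0.656), and DESeq2 called it (-0.31, adjusted p = 0.0097). Rpl11 is a gene whose entry holds 36.8% of the sum with its copies in WT GEOB. Rpl36al (-0.19, SE 0.0645, adjusted p = 1) and Rpl39 (-0.30, SE 0.107, adjusted p = 1) came next. The entry Rpl39 holds 61.87% of the sum with its copy in WT GEOB. Sex differs along with genotype in these 4 embryos.

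Differences between sources in the KO effect were tested directly, and 0 of 81 members were called in any of the 3 comparisons, against 2.24% of all genes for mESC minus kidney, 1.08% for mESC minus GEOB and 0.0344% for kidney minus GEOB. An unadjusted p under 0.05 was reached by 2, 1 and 1 members, against 15.5%, 10.6% and 4.23% of all genes. The smallest p was that of the entry Rpl5 for mESC minus GEOB (0.32, SE 0.0857, edgeR adjusted p = 0.0910). That entry holds 3.2% of the sum with its copy in WT mESC and 7.44% in WT GEOB. These comparisons were not run with copies added.

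Other genes of ribosome production were followed by fixed lists. Of the 6 ribosomal proteins with other names, 5 were called higher and 1 lower in WT mESC than in WT kidney. Over all genes the shares were 40.2% and 44.1%. These 6 include Rplp0 and Rplp1 of the stalk and Fau, which is made as a fusion with a ubiquitin-like protein. Against GEOB, 6 were called higher and 0 lower in both mESC and kidney. The shares over all genes were 41.3% and 43.5% for mESC and 40.6% and 37.9% for kidney. Rplp1 stood 2.41 above GEOB in mESC (SE 0.0688). Of 19 translation factors and other mRNAs with a pyrimidine tract, 18 were higher and 1 lower in mESC than in GEOB (median 1.42), beside 41.3% and 43.5% of all genes, led by Pabpc1, the cytoplasmic poly(A)-binding protein (2.83, SE 0.0667).

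Most ribosome biogenesis genes were higher in mESC than in kidney. Of 44 such genes, 42 were called higher and 1 lower in mESC than in kidney, where 40.2% of all genes were higher and 44.1% lower, with a median of 1.28, against 0.02 for the members. Polr1b, a subunit of RNA polymerase I, was 1.95 higher (SE 0.0432) and Nop2, a methyltransferase of ribosomal RNA, 1.87 (SE 0.0417). All 44 were higher in mESC than in GEOB (median 2.06), a comparison in which 41.3% of all genes were called higher. For kidney against GEOB the median was 0.73, with 40 higher and 1 lower (40.6% and 37.9% of all genes), below the median of 1.67 of the members.

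Mitochondrial ribosomal proteins had 71 higher and 4 lower of 76 in mESC against GEOB (41.3% and 43.5% of all genes), with a median of 1.06. Against kidney they had 45 higher and 20 lower (40.2% and 44.1%; median 0.37). Among 17 regulators of ribosomal protein synthesis, 11 were higher and 3 lower in mESC than in kidney, and 8 and 6 against GEOB, where 41.3% of all genes were higher and 43.5% lower, so the count against GEOB lay near the background. Eif4ebp1, a repressor of cap-dependent translation, averaged 454 ± 15.9 TPM in WT mESC, 46.05 ± 3.54 TPM in WT kidney (SD, n = 3 each) and 6.07 ± 0.141 TPM in WT GEOB (SD, n = 2). Myc, which drives transcription of ribosome genes, was lower in mESC than in kidney (-2.49, SE 0.0983) and Mycn higher (1.41, SE 0.0604). Mycl was lower in kidney than in GEOB (-2.38, SE 0.0910).

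Between KO and WT mESC few of these genes were called. The lists gave 0 of 6 other ribosomal proteins, 1 lower of 19 translation factors (Btf3, -0.19, SE 0.0524, adjusted p = 0.0394), 1 lower of 44 biogenesis genes (Surf6, -0.19, SE 0.0561, adjusted p = 0.0497), 4 lower of 76 mitochondrial ribosomal proteins and 1 lower of 17 regulators. Mrpl33, of the large mitochondrial subunit, fell by 0.40 (-0.40, SE 0.0786, adjusted p = 0.00484). Mycl averaged 15.5 ± 0.632 TPM in WT and 11.4 ± 0.467 TPM in KO wells (SD, n = 3 each; -0.48, SE 0.0850, adjusted p = 0.00220). These counts of 0 to 4 compare with 4.59% of all genes called lower. In kidney and GEOB none of the 5 lists had a called gene.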

How the data were processed

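RNA-seq of polyadenylated RNA (TruSeq v2) from 16 libraries was used; the MPRA and Hi-C samples were not used here. The authors aligned reads to mm10 with bowtie2 and used RSEM to quantify GENCODE vM2 genes together with added noncoding RNAs and LacZ; versions are not given in the sources used here. Each deposited table gives a gene's effective length, its expected counts and its TPM, and RSEM splits reads that match several genes, so 14.93% to 18.96% of entries are not whole. Expected counts were rounded and fitted with edgeR 4.0.16 (R 4.3.3): filterByExpr with the groups, TMM scaling, a model with 1 term for each source and genotype over all libraries, and the quasi-likelihood test. Within each contrast the 17459 tested genes shared 1 Benjamini-Hochberg adjustment, and a gene was called under 0.05. Each SE was taken as the size of the log2 difference over the root of the F statistic. TPM are the authors' values.

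The members, lists and markers were chosen with earlier results of these data known. Named genes are paralogs with their parents, called members (or the 3 smallest p) per KO contrast, the 4 largest called changes each way per tissue contrast among members with at least 10 TPM, the 5 highest and 3 lowest by TPM, the 3 smallest p of each list, LacZ and Peril; some genes that this rule takes are not reported here. Further members are named where a value of theirs was singled out after it was seen. Identity of copies rests on GENCODE vM21 transcripts (25862 genes matched). Start sequences are RefSeq's (GRCm38.p6).

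On simulated data with 17304 genes, changes were placed only in genes above a floor on the expected count. The rates therefore do not cover genes of low count. Counts were drawn independently with the spreads estimated from these same libraries, and no effect of clone, litter or sex was simulated. The rates hold for that setting only. The mESC comparison recovered 84% of genes changed 1.5-fold and 18% of those changed 1.25-fold. Kidney gave 84% and 30%, and GEOB 74% and 20%. False calls were 5%, 5.5% and 9.7%. Limits on low counts cover counting error only. Alternatives used DESeq2 1.42.0, RLE factors, other filters, length offsets, sex, single tissues, a replicate block, adjusted p under 0.01, KO libraries for tissue contrasts, other denominators and leaving out each library; adding copies was chosen after seeing the data. Well numbers did not pair the mESC wells (correlations of deviations 0.006, 0.016 and 0.045). Tables used pandas 2.3.3 in Python 3.11.15 and figures matplotlib 3.10.9.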

Additional observations from a re-analysis of the deposited data

How the results depend on the processing

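Counts of called members between mESC KO and WT (1 of 81) were 0 at an adjusted p under 0.01, with the filter at a sum of counts above 1, with effective length offsets and with copies added, 6 with DESeq2 (1 higher, 5 lower), 14 with mESC fitted alone (4 higher, 10 lower) and 0 to 21 with each well left out; the 21 arose without KO well 1, and the cause was not tested. With the well number as a replicate block 0 were called, and Rpl5 was 0.198 (adjusted p = 0.0596). In GEOB DESeq2 called 1 (Rpl11); kidney had 0 in every alternative, and 0 with each library left out in kidney and GEOB. Over all genes the mESC count of 1198 was 3561 with mESC fitted alone, 530 at the stricter threshold and 596 to 1435 with 1 well left out, and the kidney count of 39 was 76 with DESeq2 and 10 with kidney fitted alone. The GEOB count of 11 was 19 with DESeq2, 4 at the stricter threshold, 6 with GEOB fitted alone, 7 with effective length offsets and 2 to 7 with 1 embryo left out; the kidney count was 23 at the stricter threshold and 20 to 77 with 1 embryo left out. With 1 library left out, tissue calls ran from 60 to 63 (mESC against kidney), 79 to 79 (mESC against GEOB) and 76 to 78 (kidney against GEOB).

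Member shares in WT mESC, kidney and GEOB were 6.6507%, 7.883% and 2.5614% of expected counts, 20.8554%, 25.1405% and 10.6193% without mitochondrially encoded genes, 22.1118%, 23.1948% and 10.83% with the 6 other ribosomal proteins and -ps names, and 24.8891%, 26.5136% and 12.3308% with copies, those 6 and RPL24. Leaving out 1 library gave 19.3188% to 19.3506%, 20.6631% to 21.0893% and 9.5527% to 9.6904%. Without WT kidney 1, Rpl39l stood at 4.602 (called) and Rpl3l at 2.509 for kidney against GEOB. Of 474 alternatives for 38 named values, 456 kept direction and side of the threshold, 11 were weaker and 3 stronger. The 4 that changed direction were Rpl5 in mESC with copies added (-0.13) and, for kidney against GEOB, Rpl10l in KO libraries (1.56, from 1 count) and Rpl39l and Rpl3l without WT kidney 3 (0.00 for both, which then had 0 counts in both groups).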

Other observations

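Reads were also divided by source for another member. Gm10076, a copy of Rpl41, read 1.37 to 27.3 TPM in mESC, 243.27 to 717.27 TPM in kidney and 43.55 to 202.53 TPM in GEOB, beside 3394 to 3773 TPM of Rpl41 in mESC and 5572 to 6127 TPM in kidney. It was chosen after its values were seen.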
